A study of Solanum tuberosum with 6 samples.

Results

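The miR159 and miR319 families were followed in small RNA of potato leaves (Solanum tuberosum, cv. Shepody) by the 9 sequences of the miRNA table whose names carry miR159 (4 sequences) or miR319 (5 sequences) after the species prefix, out of 910 sequences in all. Length variants of both families were kept, and 5 sequences written MIR159 or MIR319, which come from precursors of these families, were not counted as members and are used only for comparison. Distilled water was sprayed on the control plants (libraries C1, C3, C5), whereas 5 mL of a commercial potassium phosphite (KPhi) product, diluted to 1% (v/v) in water, went on each treated plant (libraries T2, T4, T6). All plants were sprayed 21 days after emergence and their leaves were taken 72 h later, at 24 days. The number of plants in a library was not given in the sources used here, and the 3 libraries of each condition are stated to be biological replicates.

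miR159 and miR319 are related families that most land plants share. miR159 guides the cleavage or translational repression of mRNAs of GAMYB-like MYB transcription factors, which act in gibberellin and abscisic acid responses and in anther development, and in Arabidopsis it keeps these mRNAs low in leaves. miR319 acts on mRNAs of class II TCP transcription factors, which limit cell proliferation at the leaf margin, and in tomato the target LANCEOLATE sets the shape of the compound leaf. The families are close in sequence, yet each acts mainly on its own group of targets.

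The sequences below are shown because the families are told apart by a few bases and the variants by their ends. They are given 5′ to 3′ as in the deposited table (T for U), with bases 2 to 8, the seed, in capitals.
sly-miR159: tTTGGATTgaagggagctcta
nta-miR159_R+1: tTTGGATTgaagggagctctat
sly-miR319a_L-1R+2: tTGGACTGaagggagctcctt
stu-miR319b: tTGGACTGaagggagctcct
stu-miR319a-3p: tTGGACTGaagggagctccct
stu-miR319-3p_L+1_1ss17CT: cTTGGACTgaagggtttccttc

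The prefixes stu, sly and nta stand for the potato, tomato and tobacco entries of miRBase, and L and R give the bases lost or gained at the 5′ and 3′ ends relative to that entry. sly-miR319a_L-1R+2 starts 1 base further in than sly-miR159, and over their 20 shared positions 17 bases were the same. Counted from the 5′ end of sly-miR159, the differences were T7C, T20C and A21T. The seed TTGGATT belonged to sly-miR159 and nta-miR159_R+1 and to no other sequence of the table, and the seed TGGACTG belonged to 4 miR319 sequences and to no other. A run of 12 bases, tgaagggagctc, was found in 8 of the 9 members and in no other of the 910 sequences. The member without it was stu-miR319-3p_L+1_1ss17CT. stu-miR319b equals the first 20 bases of sly-miR319a_L-1R+2, and stu-miR319a-3p differs from it by T20C, counted from the 5′ end of sly-miR319a_L-1R+2. Both are thus 1 base apart from sly-miR319a_L-1R+2, by an end or by a substitution, so that the split of miR319 reads among the 3 rests on single bases. RefSeq names 3 potato genes of the miR319 family, MIR319, MIR319A and MIR319B. Their positions are not given, because the sources used here name a genome release (PGSC) only for the authors' promoter search and not for the mapping of the reads.

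The families differed widely in abundance. miR159 had 44876 reads over the 6 libraries, the fourth largest total of any miRNA family, and miR319 had 99 reads, which is 453 miR159 reads for each miR319 read. Both families together held 1.77% of the reads of the miRNA table, and 8.77% once the reads of miR166, the dominant family, were set aside. The table held 160906 reads in T4, the fewest, and 612257 in C1, the most. T4 stood apart, with 60.0% of its table in miR166 against 74.0% to 83.5% elsewhere and a TMM factor of 1.85 against 0.746 to 0.947. Without T4 the log2 fold changes given below became -0.37 for sly-miR159, -0.12 for nta-miR159_R+1, -2.35 for sly-miR319a_L-1R+2 and -1.52 for the miR319 total, none past an adjusted p of 0.05 (edgeR). Within miR159, sly-miR159 (21 nt) had 99.4% of the reads. nta-miR159_R+1, which ends in 1 more base, had 258.7 reads, nta-miR159_R+3_1ss2TC had 2 reads and nta-miR159_L-1R+1 had 1.17. Fractions of a read stand in the deposited table, and the rule behind them is not given in the sources used here. Within miR319, sly-miR319a_L-1R+2 had 59 reads, stu-miR319a-3p had 21.5, stu-miR319b had 13.5, sly-miR319a_L-1R+3 had 3 and stu-miR319-3p_L+1_1ss17CT had 2. Of the 9 members, 3 had at least 10 reads in at least 3 libraries and entered the test. These were sly-miR159, nta-miR159_R+1 and sly-miR319a_L-1R+2.

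Levels of sly-miR159 spread over a wide range within each condition, and those of KPhi libraries lay within or just below the range of control libraries. It had 14227, 3823 and 8920 reads in the control libraries (C1, C3, C5) against 3486, 4485 and 9673 in the KPhi libraries (T2, T4, T6). As CPM of the miRNA table (reads per 1000000), scaled by TMM so that most sequences keep their level from library to library (normalized CPM), these were 24550, 10956 and 26386 in control and 10398, 15072 and 18622 in KPhi libraries. C3 lay close to T2, the lowest library of all, and the conditions overlapped. The highest control library had 2.41 times the level of the lowest, and the highest KPhi library 1.79 times. The control mean was 20631 ± 8429 and the KPhi mean 14697 ± 4125 (SD over 3 libraries each). The log2 fold change was -0.49 (standard error 0.48, 95% interval -1.54 to 0.56, adjusted p = 0.674 by the quasi-likelihood test of edgeR over 165 sequences). Both a marked decrease and an increase therefore lie within the interval. With 1 library left out the value ranged from -0.65 (without C3) to -0.27 (without C5). Its spread between replicates, a pooled SD of 0.58 on the log2 scale, was near the median of the tested sequences (0.62).

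The 22 nt form was steadier. The authors placed it among sequences that map to the genome without a predicted hairpin, and sly-miR159 among known miRNAs of related species. nta-miR159_R+1 had 83.3, 31 and 35 reads in the control libraries (C1, C3, C5) against 31.3, 30 and 48 in the KPhi libraries (T2, T4, T6), or 143, 88.8 and 103.5 normalized CPM in control and 92.5, 100.8 and 92.4 in KPhi libraries. All 3 KPhi libraries fell between C3 and C5, and C1 stood above the rest. Its log2 fold change was -0.24 (standard error 0.48, 95% interval -1.29 to 0.82, adjusted p = 0.821 from edgeR). The sign of this value depended on the scaling of the libraries and was positive, at 0.25, when they were scaled by the size of the miRNA table alone. Without C1 it was -0.02.

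As a part of all miR159 reads, which needs no scaling between libraries, nta-miR159_R+1 made up 0.582%, 0.804% and 0.391% in the control libraries (C1, C3, C5) against 0.891%, 0.664% and 0.494% in the KPhi libraries (T2, T4, T6). The libraries of both conditions were interleaved. The means were 0.592% ± 0.207 and 0.683% ± 0.199 (SD over 3 libraries each, p = 0.7 by an exact two-sided permutation test). Its share was lowest in C5, with a 95% Wilson interval of 0.281% to 0.543%, and that of T2, with the highest share, was 0.621% to 1.25%. These intervals, like all those on reads here, cover counting error only. With 3 libraries against 3 no such test can give a p below 0.1.

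**Figure D1:**
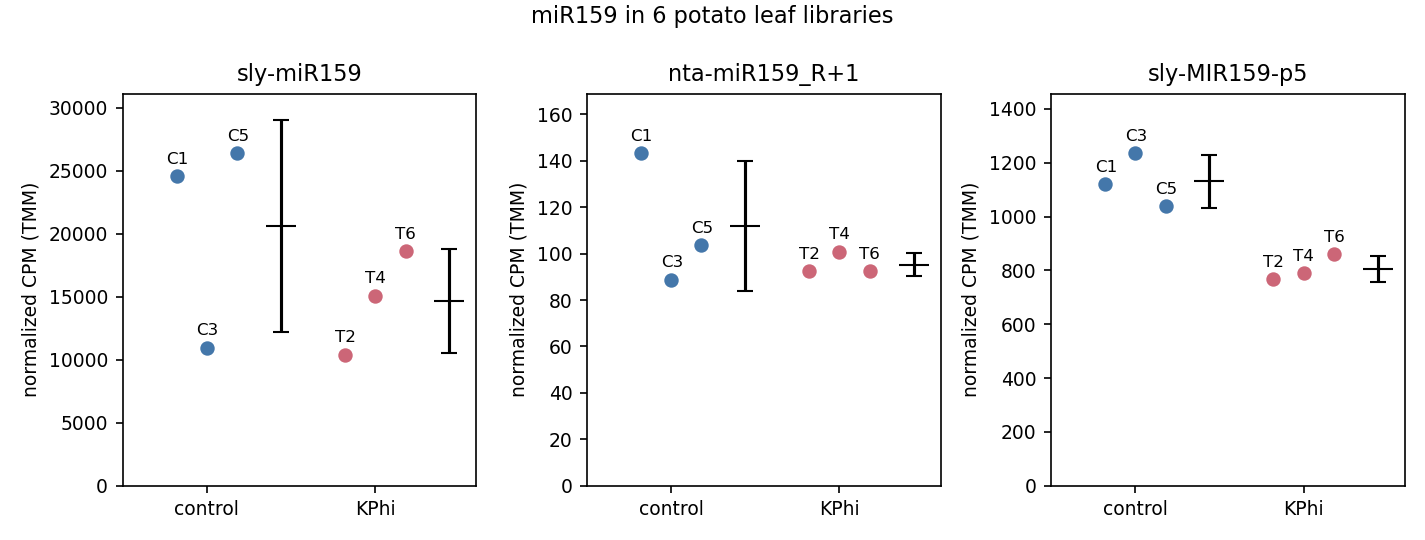
Normalized CPM (vertical axis, from 0) of sly-miR159, nta-miR159_R+1 and sly-MIR159-p5 in the 3 control libraries (blue) and the 3 KPhi libraries (red), each point a library, with the mean and SD of the condition in black. sly-miR159 in C3 (10956) lies beside T2 (10398), while sly-MIR159-p5 has its highest value in C3 (1235) and no overlap between conditions.

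The opposite arm of a miR159 precursor gave a second readout of the family. sly-MIR159-p5 lies on the 5′ side of the hairpin, whereas sly-miR159 lies on the 3′ side, and is shown because it had the most reads of any sequence of both families other than sly-miR159.
sly-MIR159-p5: agctgctgacctatggattcc
It had 649, 431 and 351 reads in the control libraries (C1, C3, C5) against 257, 235 and 447 in the KPhi libraries (T2, T4, T6), with 18.8 sly-miR159 reads for each of its own. In normalized CPM it was at 1120, 1235 and 1038 in control and at 767, 790 and 861 in KPhi libraries. Every KPhi library was below every control library, which held for 9.09% of the 165 tested sequences, while 7.88% were above in every KPhi library. Its log2 fold change, -0.49, was the same as that of sly-miR159 to the second decimal (standard error 0.40, adjusted p = 0.610 from edgeR), and it lay at 0.03 when the libraries were scaled by the size of the table alone. This sequence is among those the study selected on these libraries. Its spread between replicates, 0.11 on the log2 scale, was the smallest of the 165.

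Per 1000 miR159 reads there were 45.3, 111.8 and 39.2 sly-MIR159-p5 reads in the control libraries (C1, C3, C5) against 73.1, 52.0 and 46.0 in the KPhi libraries (T2, T4, T6). C3 stood apart, with a 95% Wilson interval of 101 to 124, and T2 came next. C3 and T2 were also the libraries with the least sly-miR159. The log2 ratio averaged -4.10 ± 0.82 over control and -4.16 ± 0.35 over KPhi libraries (SD over 3 libraries each, p = 1 by an exact two-sided permutation test). The difference of -0.06 became 0.41 without C3 and 0.08 without T6.

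The summed level of miR319 was below that of every control library in every KPhi library, on few reads, and the difference did not pass the adjusted threshold. sly-miR319a_L-1R+2, its main sequence, had 25, 10 and 15 reads in the control libraries (C1, C3, C5) against 1, 3 and 5 in the KPhi libraries (T2, T4, T6). No KPhi library reached the lowest control library before scaling, but T4 and T2 also had the fewest reads in the table (160906 and 365835). Normalized, its levels were 43.1, 28.7 and 44.4 CPM in control and 2.98, 10.1 and 9.63 in KPhi libraries. Every KPhi library was thus below every control library, as for 9.09% of the 165 tested sequences, while 7.88% were above in every KPhi library. The log2 fold change was -2.29 (standard error 0.55, 95% interval -3.51 to -1.08), the lowest of the 165 tested sequences, with the smallest unadjusted p (0.00168) and an adjusted p = 0.278 from edgeR. At an adjusted p under 0.05 edgeR called 0 of the 165 (0%), and DESeq2 and limma-trend likewise called 0. At an unadjusted p under 0.05 edgeR had 16 (9.7%), of which 7 were lower (4.24%) and 9 higher (5.45%), DESeq2 had 27 and limma-trend 9. Of the 3 tested members 1 was among the 7. This sequence passed the minimum of reads through its 3 control libraries alone, so a sequence as scarce in control libraries as it was in KPhi libraries would not have been tested. Under DESeq2 its adjusted p was 0.0852, the lowest over all alternatives, and the highest was 0.768, without C1.

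**Figure D2:**
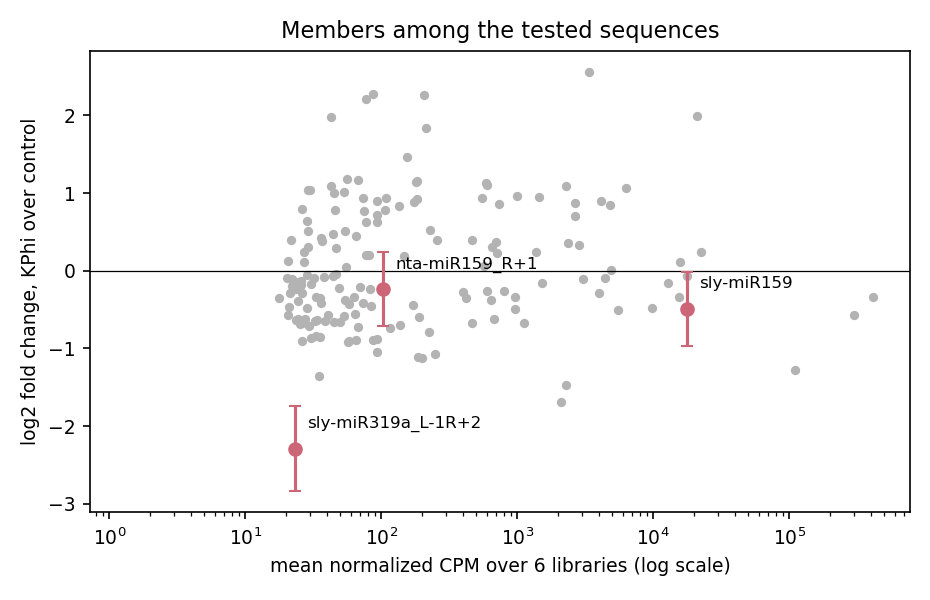
Log2 fold change of KPhi over control (vertical axis) against the mean normalized CPM over 6 libraries (horizontal axis, log scale) for the 165 tested sequences (grey), with the 3 tested members in red and their standard errors as bars. sly-miR319a_L-1R+2 lies lowest, at -2.29, among the sequences of lowest abundance, and sly-miR159 lies at -0.49 among the most abundant.

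The other miR319 sequences were too scarce for the test. stu-miR319a-3p had 5, 1.5 and 7 reads in the control libraries (C1, C3, C5) against 1, 2 and 5 in the KPhi libraries (T2, T4, T6). stu-miR319b had 0, 1.5 and 6 reads in control and 2 in each KPhi library. Both overlapped between conditions. sly-miR319a_L-1R+3 had 2 reads in C1 and 1 in T6, and stu-miR319-3p_L+1_1ss17CT had 2 in C5 alone. Fitted without a minimum of reads, the log2 fold change of stu-miR319a-3p was -0.69 (edgeR, standard error 0.89, adjusted p = 0.775), and that of stu-miR319b was -0.33 (standard error 1.05, adjusted p = 0.944). The 4 sequences other than the main one had 25 reads in control and 15 in KPhi libraries, against 50 and 9 for sly-miR319a_L-1R+2. By library, these 4 had 7, 3 and 15 reads in control (C1, C3, C5) against 3, 4 and 8 in KPhi libraries (T2, T4, T6). They overlapped between conditions (p = 0.7 by an exact two-sided permutation test on normalized CPM). The separation of the miR319 total, given below, was thus not seen without its main sequence.

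**Figure D3:**
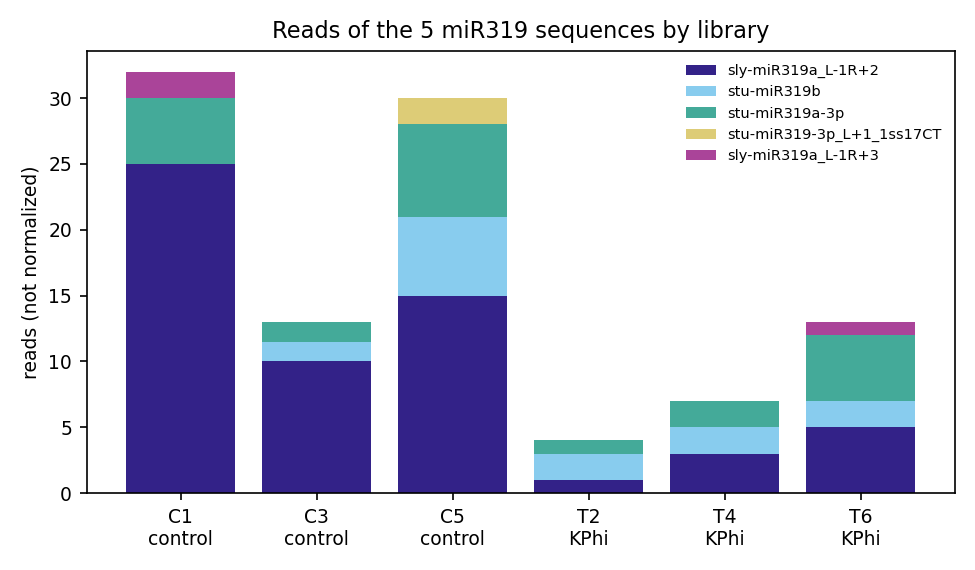
Reads (vertical axis, not normalized) of the 5 miR319 sequences, stacked by library. Control libraries hold 32, 13 and 30 miR319 reads and KPhi libraries 4, 7 and 13, and the dark part, sly-miR319a_L-1R+2, holds 10 or more reads in each control library and at most 5 in each KPhi library.

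Summed over its 5 sequences, miR319 had 32, 13 and 30 reads in the control libraries (C1, C3, C5) against 4, 7 and 13 in the KPhi libraries (T2, T4, T6), so that C3 and T6 had the same number before scaling. T6 is the deeper library of the pair, and in normalized CPM the conditions were apart, with 55.2, 37.3 and 88.7 in control and 11.9, 23.5 and 25.0 in KPhi libraries. The log2 fold change was -1.55 (standard error 0.50, 95% interval -2.74 to -0.37), with the smallest unadjusted p of the 32 families tested (0.0173) and an adjusted p = 0.374 from edgeR. Of these families 0 (0%) passed an adjusted p of 0.05 by edgeR, DESeq2 or limma-trend, and 3 had an unadjusted p under 0.05 (9.38%), 2 of them lower (6.25%) and 1 higher (3.12%), against 4 by DESeq2 and 3 by limma-trend. In 4 of the 32 (12.5%) every KPhi library was below every control library, and in 1 (3.12%) above. miR159 as a whole was at -0.49 (standard error 0.43, 95% interval -1.50 to 0.52, adjusted p = 0.667 from edgeR).

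sly-MIR319c-p5 (20 nt), a sequence of a miR319 precursor outside the members, comes from the 5′ arm and is shown as a readout of the family that the members do not include.
sly-MIR319c-p5: agctgccgactcattcatcc
It had 12, 5 and 6 reads in the control libraries (C1, C3, C5) against 3, 1 and 1 in the KPhi libraries (T2, T4, T6). Each KPhi library was below each control library, in reads and in normalized CPM, which were 20.7, 14.3 and 17.7 in control and 8.95, 3.36 and 1.93 in KPhi libraries. Shares of such separation, 9.09% lower and 7.88% higher, were taken over the 165 tested sequences and do not cover sequences this scarce. Among KPhi libraries it was highest in T2, where the miR319 total was lowest. With fewer than 10 reads in 5 libraries it entered the test only without a minimum of reads, where its log2 fold change was -1.90 (standard error 0.89, unadjusted p = 0.0328, adjusted p = 0.743 from edgeR). The other MIR rows of the families, stu-MIR319a-p5, nta-MIR319a-p5_1ss1GA and nta-MIR159-p5_1ss21AT, had 1 to 3 reads each. With MIR rows added to the family sums, miR319 was at -1.59 (standard error 0.39, unadjusted p = 0.0046, adjusted p = 0.230 from edgeR over 50 families).

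The ratio of the families within a library is free of the scaling between libraries. There were 2.24, 3.37 and 3.35 miR319 reads per 1000 miR159 reads in the control libraries (C1, C3, C5) against 1.14, 1.55 and 1.34 in the KPhi libraries (T2, T4, T6). Every KPhi library was below every control library, although the Wilson intervals of single libraries overlapped, at 1.58 to 3.16 in C1, the lowest control, and 0.750 to 3.20 in T4, the highest KPhi library. The share of other families whose ratio to miR159 is apart in this way was not determined. The log2 ratio averaged -8.41 ± 0.34 over control and -9.55 ± 0.22 over KPhi libraries (SD over 3 libraries each), a difference of -1.14 (exact two-sided permutation test, p = 0.1, the smallest that 3 libraries against 3 allow, and 0.25 when adjusted over the 5 ratios and shares tested). The difference ranged from -1.34 to -1.03 with 1 library left out, was -1.11 with MIR rows added, and was -2.09 for sly-miR319a_L-1R+2 over sly-miR159 alone. This last value was partly set by the choice of sequence, since sly-miR319a_L-1R+2 was the main sequence through its control libraries.

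**Figure D4:**
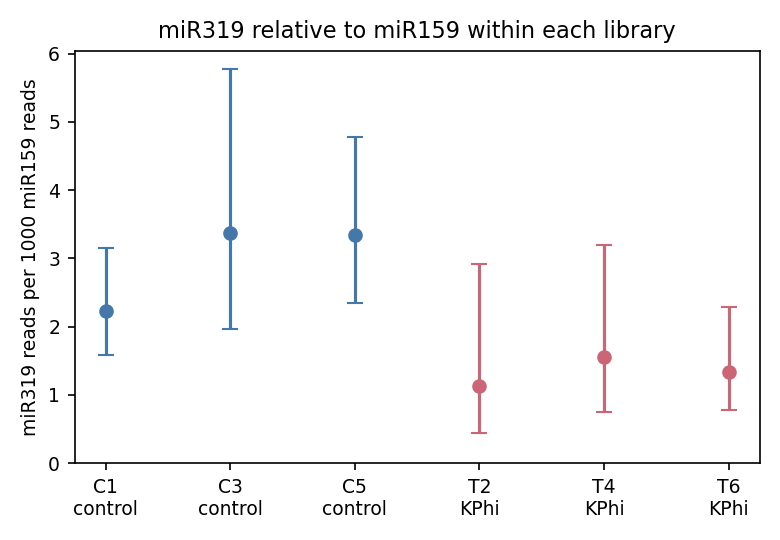
miR319 reads per 1000 miR159 reads (vertical axis, from 0) in each library, control in blue and KPhi in red, with 95% Wilson intervals that cover counting error only. Control libraries lie between 2.24 and 3.37 and KPhi libraries between 1.14 and 1.55, and the intervals of several libraries overlap.

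The make-up of miR319 was also compared, a comparison chosen after its values were seen. sly-miR319a_L-1R+2 held 78.1%, 76.9% and 50.0% of the miR319 reads in the control libraries (C1, C3, C5) against 25.0%, 42.9% and 38.5% in the KPhi libraries (T2, T4, T6). The means were 68.3% ± 15.9 and 35.4% ± 9.30 (SD over 3 libraries each, p = 0.1 by an exact two-sided permutation test, adjusted p = 0.25). sly-miR319a_L-1R+2 was the main sequence through its control libraries, with 50 of its 59 reads. In KPhi libraries it had 9 reads and stu-miR319a-3p had 8. A high share in control libraries was thus partly set by the choice of sequence, and these p-values are descriptive only. The intervals were wide, at 33.2% to 66.8% for C5 and 15.8% to 75.0% for T4. Counted together with stu-miR319b, with which it shares its first 20 bases, it held 78.9% ± 9.25 under control and 66.8% ± 11.3 under KPhi treatment, with overlap (SD over 3 libraries each, p = 0.3 by an exact permutation test). Before scaling, this pair had 25, 11.5 and 21 reads in the control libraries (C1, C3, C5) against 3, 5 and 7 in the KPhi libraries (T2, T4, T6), without overlap. Of its 57.5 control reads, 50 were those of sly-miR319a_L-1R+2, so this largely repeats the result of that sequence. stu-miR319b alone overlapped between conditions. The share of all sequences apart in unscaled reads was not determined.

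Counted together, the 9 members were nearly all miR159. They made up 0.264%, 0.0815% and 0.217% of the mappable reads in the control libraries (C1, C3, C5) against 0.0439%, 0.103% and 0.164% in the KPhi libraries (T2, T4, T6), with overlap between conditions. The means were 0.188% ± 0.0948 and 0.104% ± 0.0599 (SD over 3 libraries each, p = 0.3 by an exact two-sided permutation test). The difference of -0.0841 percentage points became -0.0459 without C1 and -0.137 without C3. As a share of the miRNA table the means were 1.85% ± 0.886 and 1.84% ± 0.927 (SD over 3 libraries each, p = 1 by an exact permutation test). The size of the table relative to the mappable reads differed between libraries. It was 9.14% to 11.3% in control libraries, and 4.56%, 3.66% and 9.35% in T2, T4 and T6. T2 and T4 thus lay below the control range and T6 within it. The part of this in the members' values was not tested.

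The scaling of the libraries shifted every fold change at once. For the 165 tested sequences the median fold change (log2) was -0.13 by TMM, 0.35 by library size alone and -0.49 by mappable reads. Relative to that median, sly-miR159 was at -0.36, -0.35 and -0.37 under these scalings, nta-miR159_R+1 at -0.11, -0.09 and -0.21, and sly-miR319a_L-1R+2 at -2.16, -2.26 and -2.19. Scaling moves all fold changes by a similar amount, so these similar differences follow largely from the method and are no separate result about the members.

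**Figure D5:**
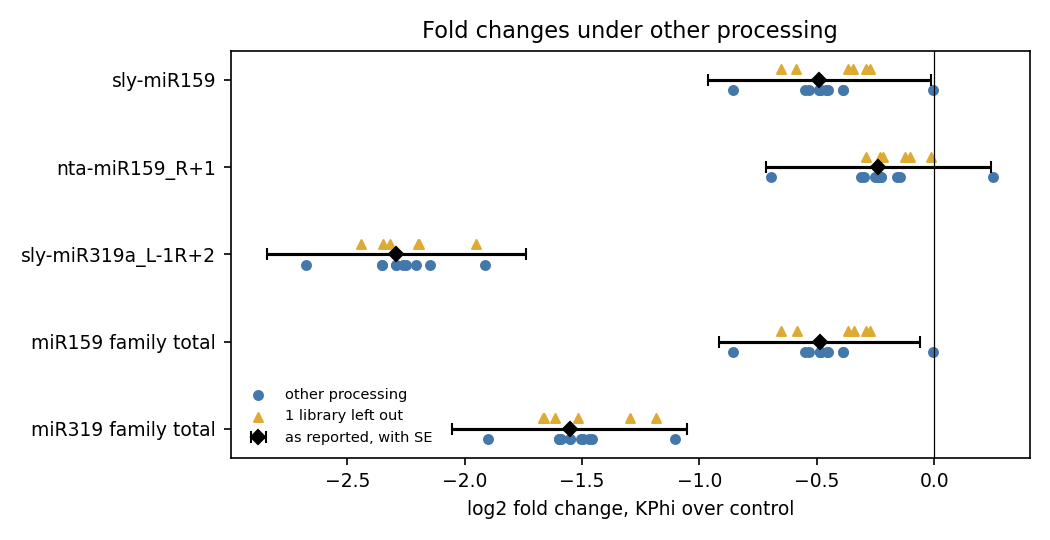
Log2 fold change of KPhi over control (horizontal axis) for the 3 tested members and both family totals, as reported with its standard error (black), under other processing (blue) and with 1 library left out (yellow). The values of sly-miR319a_L-1R+2 lie between -2.67 and -1.91 and those of the miR319 total between -1.90 and -1.11, while those of sly-miR159 reach -0.01 and those of nta-miR159_R+1 pass 0.

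Among other miRNAs of leaf development, which act on SPL (miR156), NAC (miR164), HD-ZIP III (miR166), GRAS (miR171), AP2 (miR172) and GRF (miR396) transcription factors, 15 of 40 sequences were tested. In Arabidopsis, TCP factors under miR319 raise miR396, which in turn holds down the GRF factors. Of the 15, 0 passed an adjusted p of 0.05 in edgeR and 5 had an unadjusted p under 0.05, beside 16 of all 165 (9.7%). Of the 15, 13 lay below 0 and 2 above, beside 93 below and 72 above over all 165, and the median was -0.57, beside -0.13. By library size alone 8 lay below 0 and 7 above, with a median of -0.10 beside 0.35 over all 165. Of the 13, 8 belonged to miR166. Of the 3 tested miR396 sequences 2 were above 0, the highest, sly-miR396a-5p, at 2.56 (adjusted p = 0.470 from edgeR). All 3 overlapped between conditions. All miR396 rows together gave 1.41 (edgeR, standard error 0.88, adjusted p = 0.493). A link between miR319 and miR396 in these leaves was not tested. miR828 and miR858, the other families known to act on MYB factors, had 0 sequences in the table.

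The sequences most like sly-miR159 over the 6 libraries were sought by the root mean square difference of log2(normalized CPM + 1) after each sequence's mean was removed. Of the other tested sequences, the nearest were PC-5p-53314_32 (0.24), stu-MIR6025-p3 (0.25), nta-MIR6164b-p3_2ss13CT20AG (0.27), PC-3p-639_2331 (0.27) and stu-miR160a-5p (0.28), a miRNA of auxin response factors, against a median of 0.82 (names with PC are the authors' predicted candidates). nta-miR159_R+1, with the same seed, was 11th (0.40), and sly-MIR159-p5 was 32nd (0.52). Among 31 other families, the nearest to miR319 was miR171 (0.35), with 478, 324 and 435 normalized CPM in the control libraries (C1, C3, C5) against 134, 222 and 233 in the KPhi libraries (T2, T4, T6). It was followed by miR8030 (0.55) and miR160 (0.58), and then by miR159 (0.59).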

How the data were processed

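The authors cleaned the reads with ACGT101-miR, assigned them to miRBase precursors and to the potato genome by BLAST, and predicted hairpins with RNAfold. The authors deposited mappable read counts per library, expected counts (reads per sequence, some of them fractions by a rule not given in the sources used here) and a normalized signal, which is the reads divided by 1 size parameter per library with 0.001 for 0 reads. The authors' own table of comparisons (p-values, means) was not used.

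Reads were rounded to whole numbers. A sequence entered the test with a minimum of 10 reads in 3 or more libraries, and edgeR 4.0.16 in R 4.3.3 gave the result (TMM, quasi-likelihood test, Benjamini-Hochberg over all tested, threshold 0.05). Family totals sum the rows written miR and use the same scaling. Groups were taken from the sample titles. The comparison was unpaired, since the library numbers are not shared between conditions and no label pairs the libraries. Whether control and KPhi libraries came from the same experiments is not stated in the sources used here. Ratios and shares were set against each other over libraries, in exact permutation tests that were two-sided (numpy 2.4.6). The 95% Wilson intervals on reads came from scipy 1.17.1. Intervals of fold changes come from the edgeR model. Alternatives were RLE factors, library size alone, mappable reads, the authors' parameters, leaving out miR166, other minimums of reads, unrounded reads, robust dispersion, DESeq2 1.42.0, limma-trend (limma 3.58.1) on log2(normalized signal + 1), MIR rows added, and leaving out each library.

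All members, the MIR rows of both families and, by likeness, the 5 nearest sequences and 3 nearest families are named. This rule, the members and the lists were chosen with earlier results of these data known.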

Additional observations from a re-analysis of the deposited data

How the results depend on the processing

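Over the alternatives, the log2 fold changes of sly-miR159 (17 alternatives, -0.86 to -0.01), sly-miR319a_L-1R+2 (16, -2.67 to -1.91), the miR159 total (18, -0.86 to -0.004) and the miR319 total (17, -1.90 to -1.11) stayed below 0 and above an adjusted p of 0.05, as did the sign of the miR319 to miR159 ratio. The miR319 total had an unadjusted p of 0.15 by library size alone, 0.0666 without C5 and 0.0585 without T2. nta-miR159_R+1, at -0.24 as reported, was at 0.25 by library size alone and at -0.02 without C1. Its share of miR159 reads, higher by 0.0905 percentage points in KPhi libraries, ranged from -0.0134 to 0.196 with 1 library left out and was below 0 without C5 or T2. The log2 ratio of sly-MIR159-p5 to miR159 ranged from -0.35 to 0.41. Without a minimum of reads, 4 sequences of 841 and 1 family of 86 passed an adjusted p of 0.05, none of them a member. With 10 reads required in every library, sly-miR319a_L-1R+2 and the miR319 total had no value. KPhi levels of miR319 rest on 4 to 13 reads a library, which limits their precision.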
